A study of Schizosaccharomyces pombe with 8 samples.

Results

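The serine 2 to alanine (S2A) and serine 7 to alanine (S7A) mutants of Rpb1, the largest subunit of RNA polymerase II, were set directly against each other in Schizosaccharomyces pombe, the fission yeast. The comparison used the 2 RNA-seq libraries of each strain, 4 of the 8 libraries in the series, chosen by their labelled genotype, and covered all 7000 gene IDs of the deposited count table. Both strains, h- in mating type, had an rpb1 allele with the substitution and the kanMX6 marker (rpb1 S2A::kanMX6 or rpb1 S7A::kanMX6) together with Rpb3-3HA::hphMX6, which adds a tag to another polymerase subunit. The marker at rpb1 was therefore shared by the compared strains. The wild-type strain (WT) had the same tagged Rpb3 and no marked rpb1 allele, and a tyrosine 1 to phenylalanine mutant (Y1F, rpb1 Y1F::kanMX6 with Rpb3-3HA::hphMX6) completed the series; their levels are given for orientation. The labels describe 1 strain for each genotype, grown in rich YES medium to an optical density of 0.5. The labels do not say how many repeats of the Rpb1 tail were changed.

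The C-terminal domain (CTD) of Rpb1 is a run of 7-residue repeats whose residues are phosphorylated and dephosphorylated as the enzyme moves along a gene. Serine 2 phosphorylation accumulates towards the ends of genes, where it is placed by Lsk1 and Cdk9 and is bound by the H3K36 methyltransferase Set2 and by termination factors such as Pcf11. Serine 7 is phosphorylated near the start of genes by Mcs6, the kinase of the initiation factor TFIIH. The study asked what serine 2 phosphorylation does in antisense transcription and in RNA 3′ end formation, and the serine 7 mutant gives a comparison with another lost phosphorylation site on the same tail.

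Library totals were 20075620 and 14830660 counts for S2A and 16780896 and 23081870 for S7A; WT and Y1F libraries held 13391705 to 21986870. Levels are counts per 1000000 (CPM) after TMM scaling of the library sizes, printed for replicate 1 and then replicate 2 of a strain. Changes are S2A minus S7A log2 fold changes ± SE from edgeR's quasi-likelihood test, so that a positive value is a higher level in S2A, and p-values were adjusted by the Benjamini-Hochberg method over all 6243 genes tested. A gene was called at an adjusted p under 0.05. Replicates differed beyond sampling noise in every strain. Separate cultures are not mentioned for the libraries of a strain, and a p-value therefore measures the spread between these samples only, which may be technical.

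The transcript of the mutated gene was not called between the 2 mutants. In S2A rpb1 (SPBC28F2.12) was at 387 and 382 CPM and in S7A at 377 and 388, and the strains overlapped (0.01 ± 0.0439, adjusted p = 0.875). WT had 720.2 and 691 CPM. The substituted codons cannot be read from counts per gene. The gene rpb3 (SPCC1442.10c), tagged in every strain, did differ, at 193 and 190.04 CPM in S2A against 95.96 and 98.4 in S7A. The change was 0.98 ± 0.0437 (adjusted p = 2.98e-09), and the S7A libraries were the ones near the WT level of 105 and 106 CPM. Of 12 polymerase II subunit genes, rpb3 included, 5 passed the test as higher in S2A and 2 as lower (median 0.10), 7 of 12 in all where 53.1% of all genes tested were called (28.3% higher, 24.9% lower). Without S2A replicate 1, or without S7A replicate 1, 2 of the 12 were higher, and 3 were without S7A replicate 2, without Y1F replicate 1, with RLE scaling and with DESeq2. The other subunits moved less than rpb3. The gene rpb9 was lower in S2A (-0.57 ± 0.0706, adjusted p = 2.38e-05), as was rpb7 at -0.46, while rpb8 was higher at 0.41.

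Of the 6243 genes tested, 3317 (53.1%) differed between S2A and S7A. Those higher in S2A numbered 1765 (28.3% of genes tested) and those lower 1552 (24.9%). The 2 directions differed in size. Among the genes higher in S2A the median size of the change was 0.54 on the log2 scale and 553 (8.86% of genes tested) changed by at least 2-fold, whereas among the lower genes the median size was 0.31 and 124 (1.99%) changed by at least 2-fold. Annotated noncoding RNAs made up 386 of the 553 and 30 of the 124, and protein-coding genes 155 and 88. Across 4990 protein-coding genes the median change was -0.03, with 1148 higher and 1449 lower. That surplus of lower coding genes depended on the scaling: scaling on protein-coding genes gave 1347 higher and 1223 lower, with a median of 0.01. In all, the libraries of the 2 strains did not overlap for 77.7% of genes tested, so absence of overlap alone marks no gene out. Taking both directions, 677 genes (10.8%) were called by at least 2-fold, and 431 when only genes at 5 CPM or more in at least 2 libraries were tested.

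**Figure D1:**
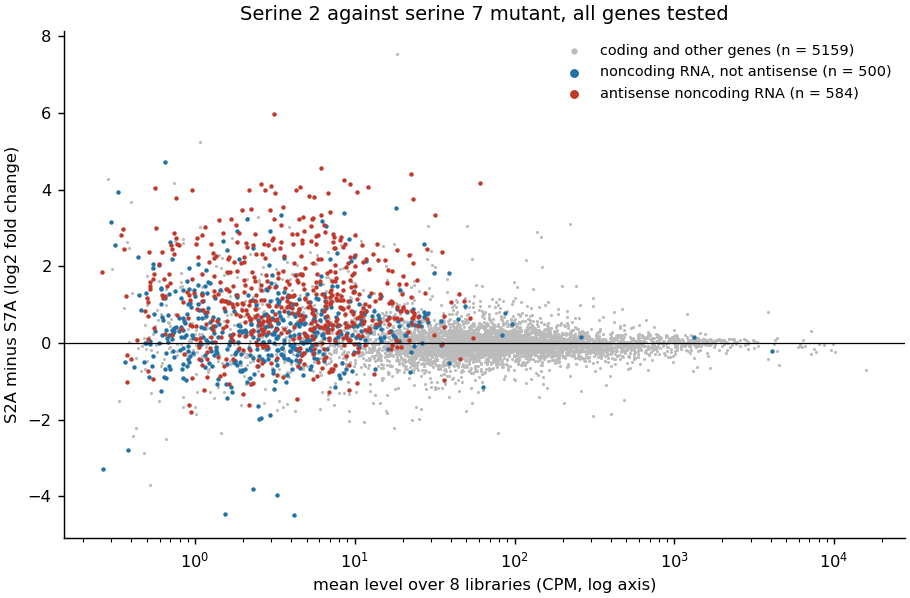
S2A minus S7A log2 fold change (vertical axis) against the mean level over 8 libraries in CPM (horizontal log axis), with 1 point for each of 6243 genes tested. Red points are the 584 antisense noncoding RNAs and blue points the annotated noncoding RNAs outside that class, partly overlapping ones included. Grey points are all remaining genes, with IDs that matched no annotation among them. Large positive changes are mostly red points at low levels, and few points lie below -2.

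Antisense noncoding RNAs made up 288 of the 553 genes higher in S2A by at least 2-fold. An RNA was placed in this class when a protein-coding gene lay opposite 50% or more of it, which held for 642 RNAs in the table, of which 584 had enough counts to be tested. Of these, 401 (68.7%) were higher in S2A than in S7A, 35 (5.99%) were lower and 148 were not called. The shares over all genes tested were 28.3% higher and 24.9% lower. The median change was 0.98 against 0.01 over all genes tested. Without any filter on counts 630 could be fitted and 400 were higher. The number lower was 22, in place of 35, without S2A replicate 1 and also without S7A replicate 1, and 18 with the filter at 5 CPM. That filter left 351 antisense RNAs tested, of which 277 were higher. In the lower direction 13 antisense RNAs differed by at least 2-fold, and in the higher direction 131 differed by at least 4-fold. As a share of all counts, antisense RNAs took 0.641% and 0.621% of the S2A libraries, 0.283% and 0.285% of the S7A libraries and 0.323% and 0.336% of the WT libraries, so that the 2 mutants did not overlap and S2A was the strain far from WT. The difference was smaller outside this class. The 324 other noncoding RNAs tested (582 in the table) have no overlap with a coding gene on the opposite strand. Their higher share was above that of all genes, by less than in the antisense class, and their lower share was below it. Of the 324, 111 (34.3%) were higher and 29 (8.95%) lower, with a median of 0.27. By at least 2-fold 67 were higher and 13 lower, where 8.86% and 1.99% of all genes tested were. With the filter at 5 CPM 122 of them were tested, of which 59 were higher and 19 lower. Against WT, the antisense median was 0.88 in S2A and -0.07 in S7A, and that of the other noncoding RNAs was -0.09 in S2A and -0.40 in S7A. These medians share the WT libraries. Over all noncoding RNAs, 1104 tested of 1531, 594 (53.8%) were higher and 82 (7.43%) lower, with a median of 0.61. Both counts were smaller with the filter at 5 CPM, at which 48 were lower.

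**Figure D2:**
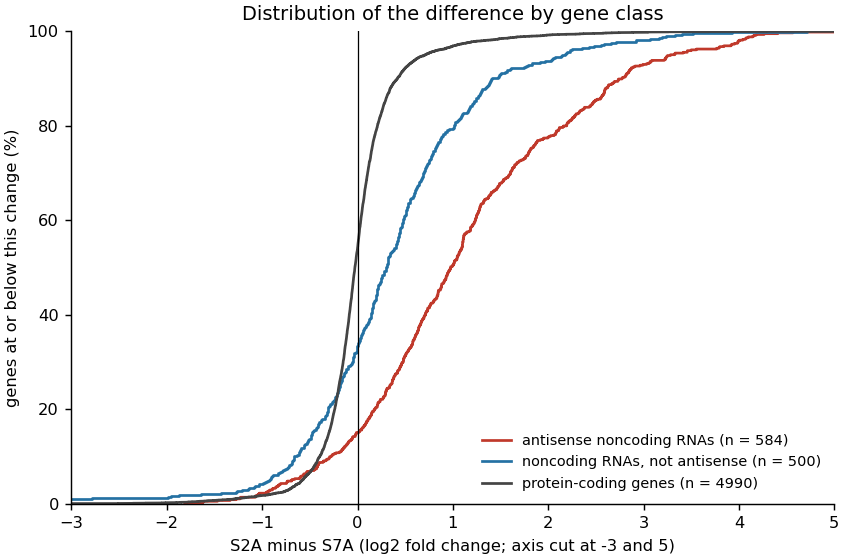
Cumulative percentage of genes (vertical axis) at or below each S2A minus S7A log2 fold change (horizontal axis, cut at -3 and 5) for 584 antisense noncoding RNAs, 500 other or partly overlapping noncoding RNAs and 4990 protein-coding genes. The antisense curve lies to the right, crossing its median at 0.98, while the coding curve rises steeply around its median of -0.03.

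The 6 noncoding RNAs with the largest rises differed in how well S7A was covered. SPNCRNA.818, opposite the protein kinase C gene pck1, stood at 10.9 and 12.5 CPM in S2A and at 0.0599 and 0.267 in S7A, from 409 and 7 counts over each strain's libraries. Its change was 5.98 ± 0.316 (adjusted p = 1.34e-08) and 7.44 without S7A replicate 2. SPNCRNA.1206, opposite the nucleoporin gene nup211, was better covered, at 80.8 and 78.1 CPM in S2A against 3.47 and 3.95 in S7A (4.41 ± 0.114, adjusted p = 3.67e-11). Both S7A libraries lay far below both S2A libraries and within the range of WT, at 3.27 and 4.81 CPM. SPNCRNA.1539, opposite the splicing factor gene prp1, changed by 4.57, SPNCRNA.1675, opposite SPBC1861.05, by 4.26, and SPNCRNA.1577, opposite taf51, by 4.16 (4.79 without S7A replicate 1). SPNCRNA.716 was the most abundant of the 6 noncoding RNAs named for the largest rises and the only one of them at least 2-fold from WT in both mutants. It stood at 172 and 179 CPM in S2A, 10.5 and 9.02 in S7A and 43.4 and 36.1 in WT, and the S2A and S7A libraries lay on either side of WT (4.18 ± 0.0877, adjusted p = 7.4e-12). SPNCRNA.716 lies opposite spc3 and SPAC56F8.12.

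The noncoding RNAs with the largest changes in the other direction were of another kind. SPNCRNA.231 and SPNCRNA.234, neighbours on chromosome I with no annotated gene opposite them, were high in S7A alone. SPNCRNA.234 stood at 14.4 and 14.8 CPM in S7A, 0.827 and 0.406 in S2A and 0.458 and 0.687 in WT (-4.48 ± 0.241, adjusted p = 1.48e-08; -5.15 without S2A replicate 1). SPNCRNA.231 changed by -4.46 ± 0.295, at 5.81 and 5.69 CPM in S7A and 0.243 and 0.271 in S2A. The S7A libraries were the high ones also for SPNCRNA.373, at 8.81 and 6.53 CPM against 0.438 and 0.677, and for SPNCRNA.359, at 6.71 and 6.26 against 1.26 and 2.098. The RNA omt3 differed from these in that both mutants lay below WT, S2A by more: it had 0.243 and 0.0677 CPM in S2A, 2.99 and 2.53 in S7A and 7.73 and 8.45 in WT (-3.96 ± 0.398, adjusted p = 3.73e-06; -5.20 without S2A replicate 1). SPNCRNA.1182, opposite the sterol-binding protein gene osh6, was low in S2A, at 1.12 and 0.880 CPM (-1.96). Its S7A libraries, at 4.25 and 3.73 CPM, lay within the range of WT, at 2.88 and 4.53.

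The antisense RNAs were split by where they start and by the gene they oppose, over the 581 whose opposed gene was also tested. RNAs starting past the 3′ end of the opposed gene had a median change of 0.74 and 67.0% of 212 were higher in S2A. RNAs starting inside the gene were split over 3 equal lengths of it. Those starting nearest its end had a median of 1.11 (70.2% of 215 higher), those in the middle 1.11 (69.2% of 104) and those nearest its start, or before it, 1.17 (68.0% of 50). The share called was thus similar at all positions. In 4 groups of equal size by the length of the opposed gene, 45.2% of the 146 RNAs over the shortest genes were higher, with a median of 0.49, against 77.2% of the 145 over the longest, with a median of 1.29. By the level of the opposed gene per kb, the lowest group had 56.2% higher and a median of 0.54, and the others had 71.7% to 75.2% higher and medians of 1.01 to 1.43. By the level of the antisense RNA itself, the share called higher was 57.5% in the lowest group and 79.3% in the highest, with medians of 1.11 and 0.84. That level is the mean over all 8 libraries, the S2A libraries included, so a rise in S2A itself can move an RNA into a higher group. These splits overlap one another and are descriptions.

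Opposed coding genes did not mirror this size of difference. There were 399 pairs whose antisense RNA was higher in S2A. Their coding gene was also higher in 98 (24.6%), was lower in 128 (32.1%) and passed no test in 173. Of the 147 pairs with an uncalled antisense RNA it was lower in 40 (27.2%) and higher in 40. The difference between these shares was not tested. Spearman's rho between the 2 changes was -0.147 across the 581 pairs, which come from the same libraries and can share reads if strand was not used in counting. As examples of a lower opposed gene, nup211 changed by -0.45 ± 0.0445 (adjusted p = 3.13e-06) opposite SPNCRNA.1206. Likewise pck1 changed by -0.42 ± 0.04504 opposite SPNCRNA.818 and prp1 by -0.28 ± 0.0516 opposite SPNCRNA.1539. These examples do not stand for the 98 pairs with a higher coding gene or the 173 with an uncalled one. Of all 618 tested coding genes opposite an antisense RNA, 158 (25.6%) were higher and 187 (30.3%) lower, with a median of -0.03. Their changes ranged from -1.86 to 2.75. Over all 4990 protein-coding genes the shares were close to these, at 23.0% and 29.0%, also with a median of -0.03. Over all genes, noncoding RNAs included, they were 28.3% and 24.9%. The median of the 618 was 0.00 after scaling on protein-coding genes.

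Beside 24.9% of all genes tested, all 3 genes of the phosphate acquisition list were higher in S7A than in S2A. In phosphate-rich medium these genes are held low in fission yeast, in part by noncoding transcription that runs through their promoters. tgp1, a glycerophosphodiester transporter (SPBC1271.09), stood at 204 and 226 CPM in S7A, 37.3 and 48.7 in S2A and 25.1 and 21.01 in WT, so that both mutants lay above WT and S7A above S2A (-2.34 ± 0.1003, adjusted p = 2.39e-09). pho1, the secreted acid phosphatase (SPBP4G3.02), stood at 890.3 and 1014 CPM in S7A and 249 and 278 in S2A (-1.85 ± 0.108, adjusted p = 2.87e-08). The S2A libraries of pho1 overlapped the WT libraries, at 271 and 204 CPM. The phosphate transporter pho84 (SPBC8E4.01c) differed less, at 1831 and 1920.1 CPM in S7A against 1145 and 1266 in S2A, with WT between at 1665 and 1384 (-0.64 ± 0.0857, adjusted p = 4.59e-05).

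Another gene among the coding genes with the largest differences, vtc4, the catalytic subunit of the vacuolar transporter chaperone that makes polyphosphate (SPCC1322.14c), stood at 640.1 and 652 CPM in S7A, 173 and 174 in S2A and 267 and 237 in WT (-1.89 ± 0.0564, adjusted p = 1.13e-10). vtc2, another subunit of that complex, which was looked up after the value of vtc4 was seen, had 820.4 and 869 CPM in S7A and 300.05 and 307 in S2A (-1.48 ± 0.0467, adjusted p = 1.65e-10). WT lay between the mutants for both genes, unlike tgp1, for which it was the lowest of the 3. The S2A libraries were below WT (-0.54 for vtc4, adjusted p = 6.25e-06) and the S7A libraries above it (1.36, adjusted p = 3.92e-09). Those contrasts share the WT libraries and called 55.4% of genes tested in S2A and 47.4% in S7A. Among 8 regulators of the phosphate pathway 5 passed the test as lower in S2A and 1 as higher (median -0.33), shares of 62.5% and 12.5% beside 24.9% and 28.3% over all genes tested. asp1, the inositol pyrophosphate kinase, changed by -0.45 ± 0.0471, the termination factor rhn1 by -0.49 ± 0.0564, and the kinase csk1 by -0.57 ± 0.0925. seb1, a CTD-binding termination factor, was the member that was higher in S2A, at 224 and 214 CPM against 161 and 161 (0.45 ± 0.0436, adjusted p = 3e-06). The transcription factor pho7 was not called (-0.03 ± 0.0494, adjusted p = 0.64).

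**Figure D3:**
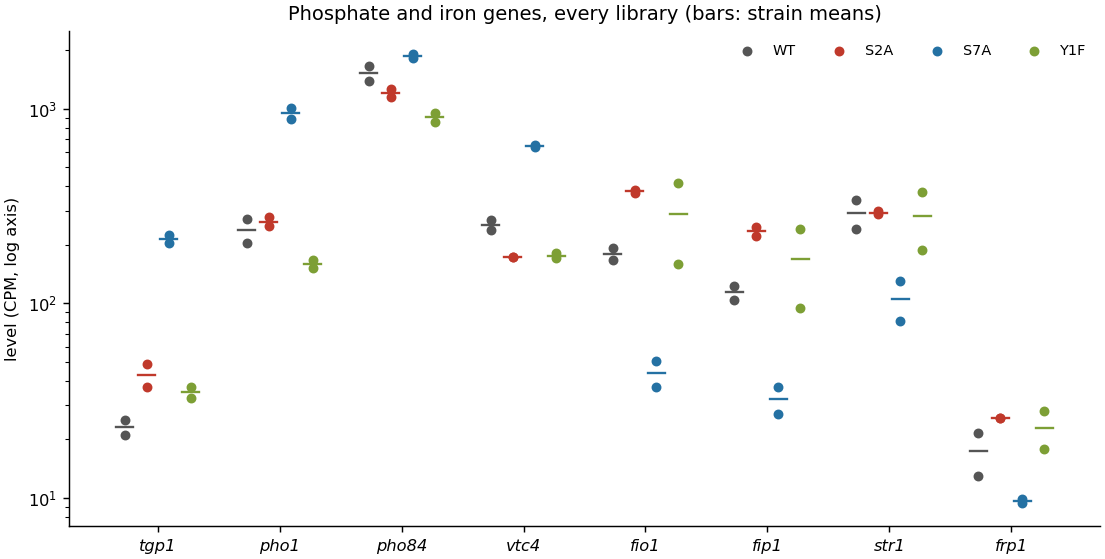
Level of 4 phosphate genes and 4 iron genes in CPM (vertical log axis), with 1 point for each library, coloured by strain, and a short bar at each strain's mean of 2 libraries. S7A is the highest strain for tgp1, pho1 and vtc4 and the lowest for fio1, fip1, str1 and frp1.

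Of 11 iron acquisition genes 6 (54.5%) passed as higher in S2A and 1 (9.09%) as lower, beside 28.3% and 24.9% over all genes tested, with a median of 0.59. fio1 and fip1 (SPAC1F7.08 and SPAC1F7.07c) encode the multicopper ferroxidase and the permease of the reductive iron uptake system. fio1 stood at 383 and 371 CPM in S2A and 50.8 and 37.4 in S7A, with WT between at 168 and 192 (3.11 ± 0.322, adjusted p = 4.95e-06). fip1 stood at 247 and 223 in S2A and 37.4 and 27.1 in S7A (2.88 ± 0.322, adjusted p = 9.56e-06). The Y1F libraries spread widely for these genes, at 160.4 and 414 CPM for fio1, and they enter the shared error. The siderophore transporter gene str1 changed by 1.48 ± 0.2698 and the ferric reductase gene frp1 by 1.43 ± 0.2195, and in both the S2A and S7A libraries did not overlap. The lower member was fep1, the repressor of iron uptake, at -0.19, and its call was lost without S2A replicate 1. str3, sib2, php4 and pcl1 were not called. Of 4 copper genes 1 was called, the transporter ctr5 at 1.06 ± 0.28998 (adjusted p = 0.00829). ctr5 was no longer called without S2A replicate 2 (adjusted p = 0.0802) or S7A replicate 2 (0.0562).

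Thiamine genes were higher in S2A in 6 of 7 cases, with none lower and a median of 0.41 (1 was lower without S2A replicate 2). With all libraries the share higher was 85.7%, beside 28.3% over all genes tested. nmt1, a thiamine-repressed biosynthesis enzyme, stood at 5.301 and 7.78 CPM in S2A and 1.02 and 0.3998 in S7A (3.26 ± 0.346, adjusted p = 6.17e-06). Its level in S7A was low and uneven, so that the change was 3.99 without S7A replicate 1 and 2.65 without S7A replicate 2. thi9, the thiamine transporter, had 48.6 and 49.9 CPM in S2A, 22.3 and 24.4 in S7A and 61.1 and 56.2 in WT, so S7A was the strain below WT (1.07 ± 0.0723, adjusted p = 1.07e-07).

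The Ste11 and pheromone list was split, and its 5 lower members included ste11 and mei2. ste11, the transcription factor that starts the programme, had 22.3 and 17.4 CPM in S2A, 64.03 and 55.2 in S7A and 72.9 and 81.4 in WT (-1.56 ± 0.107, adjusted p = 1.2e-07). mei2, the RNA-binding protein that brings cells into meiosis, had 10.8 and 8.798 CPM in S2A, 22.5 and 18.04 in S7A and 88.1 and 77.4 in WT (-1.01 ± 0.149, adjusted p = 9.9e-05). Both mutants lay below WT for both genes; ste11 in S7A was close to WT (-0.38, adjusted p = 0.00554), whereas mei2 in S7A was not (-2.04, adjusted p = 6.29e-08). The pheromone signalling genes ste4, byr1 and gpa1, which encode an adaptor, a MAP kinase kinase and a G protein alpha subunit, changed by -1.35 ± 0.143, -1.23 ± 0.0899 and -1.15 ± 0.0816. In each, the S7A libraries lay between WT and S2A.

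Of 15 members tested (16 in the list) 3 (20%) passed as higher in S2A and 5 (33.3%) as lower (median -0.11). Shares over all genes tested were 28.3% and 24.9%. All 5 lower members differed by at least 2-fold, and 1 of the higher ones did. The gene ste6, which encodes the exchange factor of Ras1, was higher in S2A (1.02 ± 0.0946, adjusted p = 1.82e-06), as were the protease gene sxa2 (0.76) and ste7 (0.48). Among M-cell and P-cell mating genes 4 of 9 tested (44.4%) were higher and 2 (22.2%) lower, with a median of 0.07. mfm2, an M-factor pheromone gene of the labelled h- mating type, had 3.404 and 2.44 CPM in S2A, 15.6 and 12.5 in S7A and 34.6 and 37.5 in WT (-2.22 ± 0.167, adjusted p = 2.69e-07). Another M-factor gene, mfm3, changed the other way (0.90, adjusted p = 0.0111), a call lost without S2A replicate 2, without S7A replicate 2 and with DESeq2, and mam1, the M-factor exporter, was lower (-0.34). map2, the P-factor gene of the other mating type, was detected at 9.77 and 9.34 CPM in S2A and 4.13 and 4.49 in S7A (1.14 ± 0.146). In bulk RNA, fewer cells that use a gene and less RNA per cell cannot be told apart.

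Genes of meiosis and sporulation were higher in S2A in 12 of 25 members tested (48%), lower in 3 (12%) and not called in 10, beside 28.3% and 24.9% over all genes tested, with a median of 0.26. dmc1, the meiotic recombinase, had 12.5 and 12.3 CPM in S2A, 2.28 and 2.49 in S7A and 1.11 and 0.961 in WT (2.37 ± 0.156, adjusted p = 8.48e-08). meu14, which acts at the forespore membrane, had 14.6 and 12.2 in S2A against 4.55 and 3.73 in S7A (1.72 ± 0.1603, adjusted p = 1.91e-06). For both, the S7A libraries also lay above WT. The checkpoint kinase mek1 was different: S7A was low, at 1.797 and 1.33 CPM, while S2A had 4.57 and 5.28 and WT 3.86 and 3.57 (1.67 ± 0.213, adjusted p = 3.1e-05). ssm4 had 31.8 and 34.4 CPM in S2A, 11.1 and 11.8 in S7A and 15.3 and 16.6 in WT, on either side of WT (1.52 ± 0.0902). mug28 and hop1 changed by 1.44 and 1.00. The 3 lower members were rec12, the nuclease that starts recombination (-0.89 ± 0.216, adjusted p = 0.00395), rec25 at -0.56 and mes1 at -0.19.

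**Figure D4:**
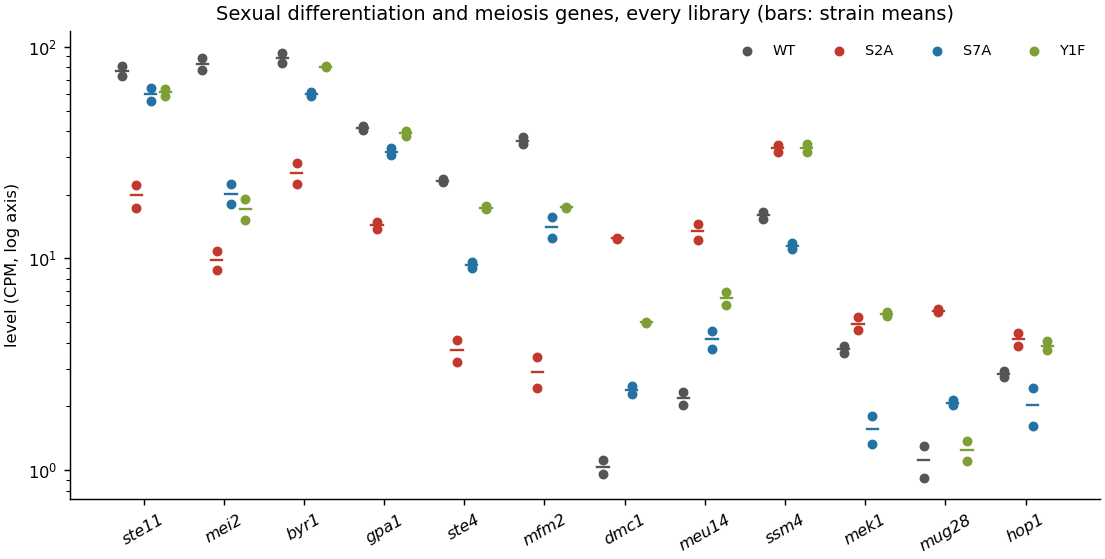
Level of 12 genes of sexual differentiation and meiosis in CPM (vertical log axis), with 1 point for each library, coloured by strain, and a short bar at each strain's mean of 2 libraries. S2A is the lowest strain for ste11, mei2, byr1, gpa1, ste4 and mfm2 and lies above S7A for the 6 meiotic genes dmc1, meu14, ssm4, mek1, mug28 and hop1.

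Stress genes changed in both directions, as all genes tested did. cta3, a cation-transporting ATPase, had 28.2 and 33.8 CPM in S7A, 11.2 and 9.75 in S2A and 4.26 and 3.502 in WT (-1.56 ± 0.122, adjusted p = 3.77e-07), and the catalase gene ctt1 had 147 and 148 in S7A and 76.3 and 77.96 in S2A (-0.93 ± 0.0511). The small heat shock gene hsp16 had the reverse order between the mutants, at 239 and 221 CPM in S2A and 149 and 156 in S7A, both above WT at 59.5 and 53.2 (0.59 ± 0.0536, adjusted p = 1.47e-06). Of 15 core stress genes 3 (20%) passed as higher in S2A and 5 (33.3%) as lower (median -0.14). Over all genes tested the shares were 28.3% and 24.9%. Of 13 chaperone genes 3 (23.1%) were higher and none lower (median 0.01), the largest being sti1 at 0.20 ± 0.0567. Only 1 chaperone gene was called higher without S2A replicate 1, without S2A replicate 2 or without S7A replicate 1, and wos2 was not called in 6 alternatives, DESeq2 among them.

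No gene in the lists of polymerase subunits, CTD kinases, 3′ end formation, Set2 and Clr6, or RNA surveillance reached a 2-fold difference. lsk1, which encodes the serine 2 kinase, had 132 and 134 CPM in S2A, 93.1 and 95.1 in S7A and 90.6 and 89.8 in WT, so S2A was the strain above the others (0.50 ± 0.0416, adjusted p = 6.39e-07). lsg1, which encodes a subunit of the same kinase complex, changed by -0.46 ± 0.0715 in the other direction. mcs6, which encodes the serine 7 kinase, had 46.3 and 47.7 CPM in S2A and 37.2 and 42.9 in S7A (0.22 ± 0.0692, adjusted p = 0.016), a call lost without S2A replicate 2 (adjusted p = 0.0817), without S7A replicate 1 (0.13, adjusted p = 0.18) and with DESeq2 (adjusted p = 0.0755). Of 13 CTD kinase and phosphatase genes 4 (30.8%) were higher and 3 (23.1%) lower (median -0.08), near the 28.3% and 24.9% over all genes. Of these, 2 were higher without S2A replicate 2, S7A replicate 1 or S7A replicate 2, and 1 with DESeq2.

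Genes of RNA 3′ end formation moved in both directions, as all genes tested did. pcf11 had 107 and 108 CPM in S2A and 76.97 and 82.2 in S7A, on either side of WT at 86.7 and 87.7 (0.43 ± 0.0456, adjusted p = 5.67e-06). Besides rhn1 and seb1, the polyadenylation factor gene pfs2 was lower in S2A (-0.32 ± 0.0588). Of 21 genes of the list 5 (23.8%) were higher and 8 (38.1%) lower (median -0.08), beside 28.3% and 24.9% over all genes tested. The gene set2 did not differ beyond its error, at 189 and 184 CPM in S2A and 183 and 182 in S7A (0.03 ± 0.0438, adjusted p = 0.57). Among 7 genes for Set2 and Clr6 complex II, a histone deacetylase, 3 (42.9%) were higher and 3 (42.9%) lower (median 0.03). The deacetylase clr6 was at -0.53 ± 0.0553 and the complex subunit pst2 at 0.35 ± 0.0406. Genes of RNA surveillance and RNA interference had shares of 35.7% higher and 21.4% lower. Of 14 genes of RNA surveillance and RNA interference 5 were higher and 3 lower (median -0.06; none lower without S7A replicate 2), among them the nuclease dcr1 at 0.33 ± 0.0539, the RNA-dependent RNA polymerase rdp1 at 0.32 ± 0.0473 and mmi1, which removes meiotic transcripts, at 0.31 ± 0.0403.

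**Figure D5:**
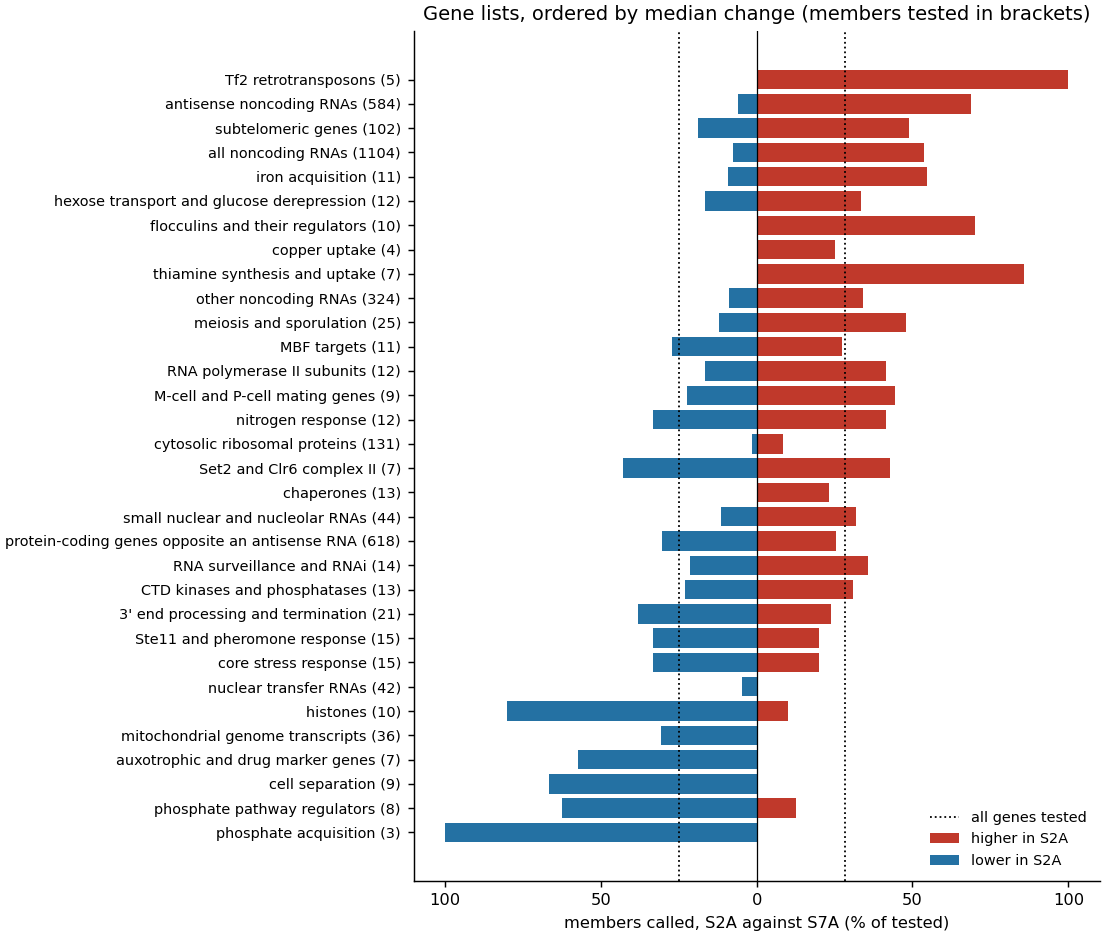
Percentage of the tested members of each gene list called higher (red, to the right) or lower (blue, to the left) in S2A than in S7A, with the number of members tested in brackets and lists ordered by their median change. Dotted lines mark the shares over all genes tested, 28.3% higher and 24.9% lower; phosphate acquisition, cell separation and histones lie far to the left and Tf2, antisense RNA and thiamine lists far to the right.

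Of 10 flocculin genes and regulators tested, which govern cell adhesion, 7 were higher in S2A and none lower (median 0.54), and 4 were higher without S7A replicate 2. With all libraries the share higher was 70%, beside 28.3% over all genes tested. pfl3, a flocculin (SPBC947.04), had 312 and 365 CPM in S2A, 49.1 and 50.4 in S7A and 139 and 128 in WT, on either side of WT (2.76 ± 0.0713, adjusted p = 3.67e-11). gsf2, the major flocculin, had 152 and 163 in S2A against 73.4 and 80.9 in S7A, whose range held the WT levels of 79.6 and 79.2 (1.03 ± 0.0552, adjusted p = 1.5e-08). Of 9 cell separation genes 6 (66.7%) were lower in S2A and none higher (median -0.31), beside 24.9% lower over all genes tested. eng1, the glucanase that opens the division septum, had 353 and 358 CPM in S2A and 533 and 578 in S7A (-0.64 ± 0.0492, adjusted p = 3.06e-07). S7A lay just below WT, at 582 and 591 CPM, and was not called against it (-0.08, adjusted p = 0.205). Of 10 histone genes 8 (80%) were lower in S2A and 1 (10%) higher (median -0.22). The changes were small, at -0.35 ± 0.04603 for hhf1 and -0.34 ± 0.0433 for hht3; the higher gene was pht1, the H2A.Z variant (0.31 ± 0.0571). MBF targets, the genes of G1 to S transition, were even, with 3 (27.3%) higher and 3 (27.3%) lower of 11 (median 0.10). These shares were near those over all genes tested.

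Among nitrogen genes the proline permease gene put4 was lower in S2A, at 11.7 and 13.9 CPM against 38.5 and 44.8 in S7A and 35.6 and 37.01 in WT (-1.72 ± 0.1004, adjusted p = 2.94e-08). The list was mixed, with 5 of 12 higher and 4 lower (median 0.05), or 3 higher without S2A replicate 2, S7A replicate 1 or S7A replicate 2, including the transporter isp4 at 0.72 ± 0.155 and the ammonium transporter amt3 at 1.03 ± 0.217. With all libraries the nitrogen shares were 41.7% higher and 33.3% lower, beside 28.3% and 24.9% over all genes tested. Of 12 hexose transport and glucose-repressed genes 4 (33.3%) were higher and 2 (16.7%) lower (median 0.55). ght5, the main hexose transporter, had 233 and 279 CPM in S2A and 88.7 and 103 in S7A, with uneven WT libraries at 74.2 and 40.2 (1.42 ± 0.249, adjusted p = 0.000411). ght2 changed the other way (-0.73 ± 0.0867, adjusted p = 1.58e-05). Of the 7 genes used as auxotrophic markers 4 (57.1%) were lower in S2A and none higher (median -0.26), with arg3 lowest at -0.37 ± 0.0645.

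Of 131 cytosolic ribosomal protein genes 11 were higher in S2A and 2 lower, shares of 8.40% and 1.53% against 28.3% and 24.9% over all genes tested, with a median of 0.04. Leaving out 1 library gave 4 to 21 higher (4 without S7A replicate 1, 6 without S2A replicate 2, 17 and 21 without WT replicate 1 and 2, 18 without S2A replicate 1), and scaling on protein-coding genes gave 22. The number lower was 4 without either WT library and 5 without S2A replicate 2. rpl1603 had 131 and 125 CPM in S2A and 63.6 and 68.3 in S7A (0.96 ± 0.0478, adjusted p = 8.51e-09), and rps1401 had 183 and 187 and 283 and 297 (-0.65 ± 0.0578). Each has a near-identical paralog with which it could share reads. The mitochondrial genome gave 11 of 36 transcripts lower in S2A and none higher (median -0.23), and 6 lower without S2A replicate 2 or 5 without S7A replicate 1. With all libraries the mitochondrial share lower was 30.6%, near the 24.9% over all genes tested, while the share higher was 0% beside 28.3%. Of 42 nuclear transfer RNAs tested (171 in the table), 4 of them also tested with the filter at 5 CPM, 2 (4.76%) were lower and none higher (median -0.18). Those 2 calls were not stable: none was made with DESeq2 or with the filter at 5 CPM, 1 without S2A replicate 2, S7A replicate 1, S7A replicate 2, WT replicate 2 or either Y1F library, and 4 without S2A replicate 1, and 1 was higher without S7A replicate 2. Their medians against WT were 0.74 in S2A and 1.02 in S7A for the mitochondrial transcripts and 1.19 and 1.33 for the transfer RNAs. Of 44 small nuclear and nucleolar RNAs tested 14 (31.8%) were higher and 5 (11.4%) lower (median 0.01). Among them snoR69 stood out as low in S2A, at 10.7 and 8.798 CPM against 35.4 and 31.7 (-1.76 ± 0.1103, adjusted p = 5.51e-08). All 5 tested Tf2 retrotransposon copies of 13 were higher in S2A (median 1.78), beside 28.3% of all genes tested. With the filter at 5 CPM only 1 copy was tested, and it was higher. Tf2-2 had 6.08 and 7.72 CPM in S2A, 1.56 and 1.599 in S7A and 3.27 and 3.02 in WT (2.11 ± 0.209, adjusted p = 3.43e-06). The copies are near-identical and cannot be treated as separate measurements.

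The largest change of all lay near a chromosome end. The gene gdt1 (SPAC186.05c), annotated as a GDT1-like protein, had 73.8 and 70.5 CPM in S2A and 0.419 and 0.355 in S7A, which overlapped WT at 0.393 and 0.137 (7.53 ± 0.159, adjusted p = 7.4e-12). Its neighbour SPAC186.04c had 4.23 and 3.99 CPM in S2A and 4 counts in all in S7A (5.24 ± 0.385). They belong to a run of 5 adjacent tested genes, from SPAC186.02c to prl61, that were each higher in S2A by at least 2-fold. Of 102 tested genes (181 in the table) in the outermost 100 kb of chromosomes I and II, 50 (49.0%) were higher and 19 (18.6%) lower (median 0.63). The shares over all genes tested were 28.3% and 24.9%. With the filter at 5 CPM 56 subtelomeric genes were tested, of which 30 were higher and 11 lower. A gene could pass either filter through 1 strain in which it is high, as gdt1 did through S2A. The subtelomeric shares, those of single ends included, therefore cannot be read as shares of all 181 genes. The right end of chromosome II was highest, with 17 of 24 tested genes (70.8%) higher and a median of 1.49. At the right end of chromosome I 10 of 26 (38.5%) were higher and 10 (38.5%) lower.

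Runs of at least 3 adjacent tested genes that each differed by at least 2-fold in 1 direction numbered 10 higher and 1 lower in S2A. Over all genes tested 8.86% were higher and 1.99% lower by at least 2-fold, so higher runs are likelier even without clustering. Whether the runs exceed that was not tested. Neighbours were taken on both strands, so members of a run can overlap. The longest run held 8 genes from SPNCRNA.1695 to pan5 on chromosome II, with changes from 1.09 to 3.04. Within it nrg1 had 53.3 and 51.6 CPM in S2A, 10.4 and 12.6 in S7A and 42.3 and 54.4 in WT, whereas nam3, a noncoding RNA, had 73.9 and 84.8, 20.7 and 23.5 and 21.5 and 26.3. S7A was thus the strain away from WT for nrg1 and S2A for nam3. The Y1F libraries held 0.294 and 0.177 CPM of pan5 and 0.0735 and 0.177 of SPBPB2B2.06c, far below the other strains. SPBPB2B2.06c, annotated as a phosphoprotein phosphatase, had 85.005 and 95.97 CPM in S2A and 8.57 and 12.9 in S7A (3.04 ± 0.136, adjusted p = 2.98e-09). The next longest run held 6 noncoding RNAs on chromosome I, SPNCRNA.777 to SPNCRNA.782, with changes from 1.39 to 3.24. The 1 lower run was SPNCRNA.231 to SPNCRNA.234. Run members outside the naming rule were chosen after their values were seen.

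The remaining coding genes with the largest differences came from several functions. Higher in S2A were tht1, needed for nuclear fusion in mating, at 48.7 and 50.6 CPM against 9.94 and 8.89 in S7A (2.41 ± 0.1002), the transcription factor gene atf31 (2.52 ± 0.1097), mug94 (2.57 ± 0.141), SPBC557.05, annotated as a meiotic arrestin (2.67 ± 0.143), and the uncharacterised SPAPB18E9.04c (3.04 ± 0.118). WT lay between the mutants for each of these 5 genes. Lower in S2A were psf3, encoding a subunit of the GINS replication complex, at 10.4 and 11.98 CPM against 45.2 and 43.2 in S7A (-2.00 ± 0.0842, adjusted p = 2.28e-09), and xpa1, a peptidase gene, at 10.7 and 10.5 against 42.5 and 43.1 (-2.01 ± 0.0905, adjusted p = 3.28e-09). For psf3 the Y1F libraries were lower still, at 6.76 and 6.83 CPM. The cytosine deaminase gene SPCC965.14c (-2.05 ± 0.168), SPCC1620.13 (-2.03 ± 0.142), the amino acid permease gene SPAC1039.01 (-1.78 ± 0.0629), ngl1 (-1.82 ± 0.113), gep4 (-1.73 ± 0.168) and tms1 (-1.78 ± 0.185) were also lower. Of the 24 coding genes named for size, 13 overlap an annotated gene on the other strand. The library kit keeps strand; whether the counting used it is not stated in these sources, and the values of overlapping genes are uncertain to that extent. For 8 of the named genes the mutants stood on opposite sides of WT by at least 2-fold each, with all 3 contrasts called. This held for 0.481% of genes tested. Many genes were named for a large S2A minus S7A change, which such a pattern requires, so the 2 figures cannot be compared.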

How the data were processed

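Total RNA was depleted of ribosomal RNA and sequenced as stranded read pairs of 100 nt, per the labels' protocols. The deposited values are whole-number counts per gene ID made by the authors; per the submitters' processing notes, build ASM294v2 and the tools featureCounts, HISAT2, DESeq2, StringTie and deepTools were used; no version is stated in these sources. Of 7000 IDs 271 had 0 counts throughout and 6797 matched the RefSeq annotation of ASM294v3 by locus tag; as that build differs, no coordinate from it is printed, and gene classes, overlaps, start positions, gene lengths and distances to chromosome ends rest on its gene models.

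The analysis ran edgeR 4.0.16 under R 4.3.3 on the deposited counts: filterByExpr (minimum count 10, minimum total 15), TMM scaling and a quasi-likelihood fit of all 8 libraries with 1 mean per strain (4 residual degrees of freedom; biological coefficient of variation 4.44%). The SE was taken as |log2 change| over √F. DESeq2 1.42.0 was an alternative; the others were RLE scaling, scaling on protein-coding genes, no filter, at least 5 CPM in 2 libraries, only the compared strains, a replicate block, any antisense overlap and leaving out each library. The procedure was tested on simulated data. Python 3.11.15 with pandas 2.3.3, numpy 2.4.6 and matplotlib 3.10.9 made tables and figures.

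Named genes were rpb1 and rpb3; up to 12 coding genes each way with the largest called, non-overlapping change at a mean of at least 5 CPM; up to 6 noncoding RNAs each way at 1 CPM; up to 4 called members of each list (2 for lists defined by rule); and ste11, mei2, pho1, pho84, tgp1, lsk1, mcs6, set2 and pcf11. Members of runs and further called list members were named in addition, after their values were seen. The comparison and lists were chosen with earlier results of these data known. The exact counting interval covers counting error alone.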

Additional observations from a re-analysis of the deposited data

Results flagged for a closer look

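In the 2 mutants 8 of the named genes stood at least 2-fold from WT on opposite sides, with each step called. The S2A against S7A difference itself was tested by edgeR's quasi-likelihood test. Many named genes were chosen for a large S2A minus S7A change, which this pattern requires, so their number follows in part from that choice. The contrasts with WT share the WT libraries. For tht1 the changes against WT were 1.28 in S2A and -1.12 in S7A, a difference of 2.41 (adjusted p = 2.11e-09). For SPBPB2B2.05 they were 1.41 and -1.16, a difference of 2.57. For SPBC557.05 they were 1.64 and -1.03, a difference of 2.67. For pfl3 they were 1.34 and -1.42, a difference of 2.76 (adjusted p = 3.67e-11). The adjacent iron genes fio1 and fip1 stood at 1.07 and 1.04 in S2A and at -2.04 and -1.84 in S7A, with differences of 3.11 and 2.88.

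Among noncoding RNAs, SPNCRNA.716 stood at 2.14 in S2A and -2.04 in S7A, a difference of 4.18 (adjusted p = 7.4e-12). SPNCRNA.90 had a modelled difference of 4.72, but only 2 counts in S7A against 54 in S2A. The ratio of the mutants from those counts was 29.95, with an exact 95% counting interval from 7.90 to 254.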

How the results depend on the processing

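The count of genes called between S2A and S7A was 3317 in the report and 2690 (1391 higher, 1299 lower) with DESeq2, 2678 of them the same genes; it ranged from 2572 to 3504 over the fits that leave out 1 library. Scaling on protein-coding genes moved the median of all genes by 0.03 and gave 1977 higher and 1316 lower. At 5 CPM in at least 2 libraries 431 genes were called by at least 2-fold and 18 antisense RNAs were lower in S2A, against 677 and 35; both counts are over fewer genes tested. Leaving out 1 library gave 22 to 35 lower and 356 to 405 higher antisense RNAs, and with any overlap counted as antisense 476 were higher. The same-numbered libraries of S2A and S7A deviated together weakly (r = 0.13), other strain pairs had values down to -0.16, and the labels do not tie numbers to a batch, so the numbers were not taken as pairs; with a replicate block 3257 genes were called, 3222 of them shared. Of 1896 refitted values for 127 named genes 43 lost their call, and none of the 125 called genes changed sign. The uncalled rpb1, at 0.01, changed sign with RLE scaling (-0.00317) and DESeq2 (-0.00451) and ranged from -0.0114 to 0.0298 over the fits that leave out 1 library. Genes near 0 counts in a strain are limited by depth.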
